A study of Mus musculus with 3 samples.

Results

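The 10 genes described here form much of the mammalian circadian clock: *Dbp*, *Tef*, *Per1*, *Per2*, *Per3*, *Nr1d1*, *Nr1d2*, *Arntl*, *Clock* and *Cry1*. They were selected by name among the 27998 genes of each count matrix, after earlier results had shown them to differ between the libraries, so their own ratios are a description. They were followed in 3 libraries of non-cardiomyocytes (non-CMs) from ventricles of wild-type male C57BL/6J JCL mice, measured by droplet-based single-cell RNA sequencing. The libraries were from healthy hearts (0 weeks), from the adaptive hypertrophy phase 2 weeks after transverse aortic constriction (TAC, a band on the aorta that overloads the left ventricle) and from the heart failure phase 12 weeks after TAC, which was done at 8 weeks of age. The sources used here gave neither the age of the healthy mice nor the number of hearts behind a library. Each phase had 1 library, and no difference between phases has a replicate check.

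In the clock, the proteins of *Arntl* (BMAL1) and *Clock* form a dimer that binds E-boxes in DNA and switches on the *Per*, *Cry*, *Nr1d* and *Dbp* genes. PER and CRY proteins then inhibit that dimer, NR1D1 and NR1D2 (the REV-ERBs) repress *Arntl* and other genes through ROR response elements (RREs), and DBP and TEF activate genes through D-boxes. Most tissues, the heart included, carry this loop, and the levels of *Dbp*, the *Nr1d* genes and *Arntl* swing with the hour of day, *Dbp* and *Nr1d1* nearly opposite to *Arntl*. The genes were therefore set in 2 groups, the 7 of the *Dbp* phase (*Dbp*, *Tef*, *Per1*, *Per2*, *Per3*, *Nr1d1* and *Nr1d2*) and the 3 of the *Arntl* phase (*Arntl*, *Clock* and *Cry1*). The hour at which the hearts were taken was not given in the sources used here. With 1 library per phase, weeks of TAC, age, hour of collection and anything else that differed between libraries cannot be told apart.

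The 3 matrices held 3900, 2239 and 802 cells with 12309881, 4472377 and 1723863 unique molecular identifiers (UMIs, each standing for 1 captured transcript) at 0, 2 and 12 weeks, and 3892, 2231 and 792 cells had at least 200 genes and were kept. Cells were assigned by the summed UMIs of marker genes. Endothelial cells (ECs) numbered 1152, 1831 and 326 at 0, 2 and 12 weeks, fibroblasts (FBs) 1236, 99 and 194, mural cells 344, 55 and 36, and blood cells 956, 192 and 181. The 12 EC markers summed in FBs to between 1.14% and 1.47% of their level in ECs and in blood cells to between 1.35% and 1.56%, but the gate used these sums, so the values describe carry-over and are no check of the labels. In mural cells they reached 8.44% to 10.8%. Levels are given as CPM, UMIs of a gene scaled to 1000000 UMIs of its class, ratios are of CPM between libraries, and brackets hold 95% exact intervals that cover counting error only. A ratio is called higher or lower past 2-fold with at least 20 UMIs over both libraries. Over all genes with that many UMIs the median log2 ratio lay between -0.02 and 0.09 in each class and comparison.

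Short stretches of promoter are shown where the letters of these elements occur, since the proteins of the loop act on its genes through them. RefSeq starts on GRCm38.p6 gave 14 windows for 9 of the 10 genes, each from 250 bases before to 50 after a start. *Per2* had no window and was not searched. The E-box was searched as CACGTG, a weaker form of it (E-prime box) as CACGTT, the D-box as TTATGTAA and the RRE as TAGGTCA, on both strands, and no hit of one overlapped another. They occurred in 7.15%, 4.68%, 0.938% and 2.61% of all 32851 windows. Among the 14, E-boxes lay in 4 windows (2 of *Tef*, 1 each of *Per1* and *Cry1*), E-prime boxes in 2 (*Cry1* and *Nr1d1*), D-boxes in 1 (*Per3*, which held 2) and the RRE in 1 (*Arntl*). The stretches below read 5′ to 3′ on the gene's strand with the element in capitals, E-prime boxes as their reverse complement.
Per1, chr11:69098763-69098808 (+), E-box: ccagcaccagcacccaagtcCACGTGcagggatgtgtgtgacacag
Tef, chr15:81802526-81802571 (+), E-box: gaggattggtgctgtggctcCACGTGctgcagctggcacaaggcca
Tef, chr15:81811256-81811301 (+), E-box: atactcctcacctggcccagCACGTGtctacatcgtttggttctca
Nr1d1, chr11:98775380-98775425 (-), E-prime box: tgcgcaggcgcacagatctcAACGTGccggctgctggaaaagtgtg
Cry1, chr10:85185089-85185153 (-), E-prime box and E-box: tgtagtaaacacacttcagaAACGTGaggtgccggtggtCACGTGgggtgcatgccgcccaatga
Per3, chr4:151044796-151044890 (-), D-boxes: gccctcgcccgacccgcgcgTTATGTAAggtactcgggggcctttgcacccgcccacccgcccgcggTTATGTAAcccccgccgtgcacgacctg
Arntl, chr7:113207531-113207557 (+), RRE: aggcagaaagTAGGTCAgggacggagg
The *Arntl* element begins 30 bases after a start, and *Cry1*, placed here in the *Arntl* phase, carried E-box letters as *Per1* and *Tef* did. A match of letters is a description of the sequence, and where none was found this concerns only these letters in these windows.

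ECs gave the clearest picture. All 7 genes of the *Dbp* phase were more than 2-fold higher in the 2-week library than at 0 weeks, where 4.08% of all genes were, and *Arntl* and *Cry1* were more than 2-fold lower, as 6.40% of all genes were. At 12 weeks the ratios of these 9 genes ran from 0.192 to 6.73, on at most 17 UMIs each, and the interval of 1 of them, *Nr1d2*, lay away from 1.

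*Dbp* (chr7:45705088-45710203, GRCm38), a transcription factor that binds D-boxes and is a direct output of the loop, stood at 4.61 CPM in ECs at 0 weeks, 197 CPM at 2 weeks and 1.94 CPM at 12 weeks. These levels rested on 16, 688 and 1 UMIs. The ratio at 2 weeks was 42.8 [26.2-75.4], and at 12 weeks it was 0.421 [0.0100-2.71], too few UMIs to set the levels at 0 and 12 weeks apart. The UMIs of the 2-week library were spread over 464 of its 1831 ECs, with at most 7 in a cell. The share of ECs with a *Dbp* UMI was 25.3% [23.4-27.4] at 2 weeks and 1.39% [0.796-2.25] at 0 weeks. After thinning every cell to 1000 UMIs, which left out 504 and 0 shallower cells, it was 16.5% and 0.347%. The median depth of ECs was 1470 UMIs at 2 weeks and 2228.5 at 0 weeks. No class was expected to lack these genes, so there was no class in which to read a background share.

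*Nr1d1* (chr11:98767932-98775333), which encodes the repressor REV-ERBα, had the largest 2-week ratio of the 10 genes in ECs. Its level in ECs was 1.15 CPM at 0 weeks, 95.3 CPM at 2 weeks and 5.82 CPM at 12 weeks, from 4, 332 and 3 UMIs. At 2 weeks it was 82.7-fold higher [32.0-305] and at 12 weeks 5.05-fold [0.740-29.8], and at 2 weeks 273 ECs had a UMI against 4 at 0 weeks. Its paralog *Nr1d2* (REV-ERBβ) went from 4.32 CPM to 60.8 CPM and then to 29.1 CPM, a ratio of 14.1 [8.35-25.6] at 2 weeks and 6.73 [3.07-14.8] at 12 weeks. *Nr1d2* was the only one of the 10 genes whose 12-week interval in ECs lay away from 1. The 12-week ratio stood on 15 UMIs in each library, and 8.94% of all genes were past 2-fold higher in ECs at 12 weeks.

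*Tef*, the relative of *Dbp* that binds the same element, was at 7.49, 55.7 and 11.6 CPM in ECs at 0, 2 and 12 weeks, a ratio of 7.43 [4.92-11.7] at 2 weeks and 1.55 [0.523-3.86] at 12 weeks. The period genes, whose proteins inhibit BMAL1 and CLOCK, were less far apart than *Dbp* and the *Nr1d* genes. *Per1* was at 13.0, 48.2 and 5.82 CPM, with ratios of 3.72 [2.66-5.29] and 0.449 [0.0892-1.40]. *Per2* was at 1.44, 7.18 and 5.82 CPM, with ratios of 4.98 [1.87-16.7] and 4.04 [0.627-20.8], the latter on 8 UMIs over both libraries. *Per3* was at 10.1, 32.7 and 1.94 CPM, with ratios of 3.24 [2.20-4.88] and 0.192 [0.00474-1.14]. At 12 weeks *Per1* and *Per3* were thus past 2-fold lower in ECs, where 7.91% of all genes were, on 3 and 1 UMIs and with intervals that held 1.

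The *Arntl* phase went the other way in ECs for *Arntl* and *Cry1*. *Arntl* (chr7:113207465-113314126) was at 25.1 CPM at 0 weeks, 7.75 CPM at 2 weeks and 25.2 CPM at 12 weeks, from 87, 27 and 13 UMIs, so that its ratio was 0.309 [0.193-0.481] at 2 weeks and 1.01 [0.515-1.81] at 12 weeks. *Cry1* (chr10:85131700-85185064), the cryptochrome that inhibits BMAL1 and CLOCK late in the cycle, was at 23.6, 8.32 and 33.0 CPM, with ratios of 0.352 [0.222-0.544] and 1.40 [0.776-2.37]. *Clock*, which encodes the partner of BMAL1 and in many tissues has the flattest rhythm of these genes, was at 51.3, 47.6 and 71.8 CPM. Its ratio was 0.929 [0.747-1.15] at 2 weeks and 1.40 [0.954-2.00] at 12 weeks, and a change of 2-fold lay outside the first of these intervals.

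**Figure D1:**
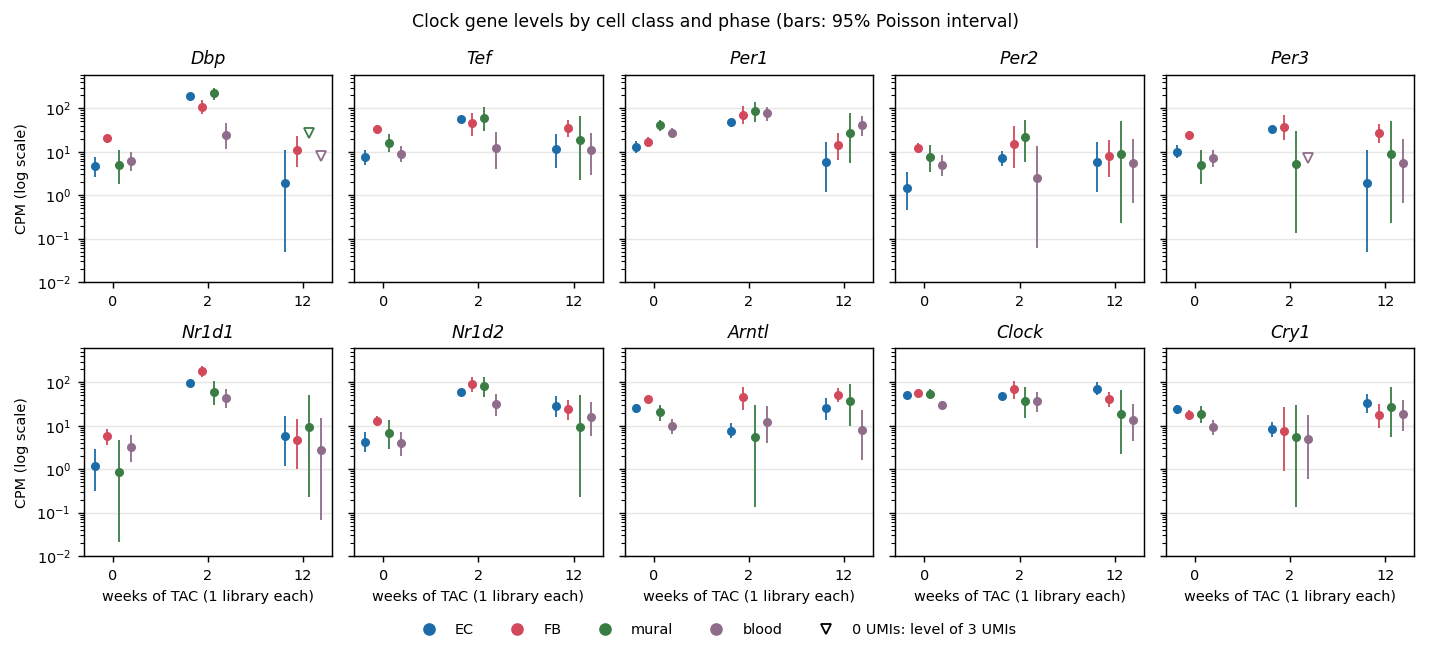
Level of each clock gene (CPM, log axis) in ECs, FBs, mural cells and blood cells at 0, 2 and 12 weeks of TAC, 1 library each. Bars are 95% Poisson intervals and open triangles mark classes with 0 UMIs at the level that 3 UMIs would give. *Dbp*, *Nr1d1* and *Nr1d2* stand highest at 2 weeks in every class, and *Arntl* dips at 2 weeks in ECs, from 25.1 to 7.75 CPM.

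Among the 10536 genes with at least 20 UMIs in ECs at 0 and 2 weeks together, *Nr1d1* had rank 2 from the highest ratio and *Dbp* rank 3. *Nr1d2* came at rank 9, *Tef* at 18, *Per2* at 31, *Per1* at 61 and *Per3* at 92. From the lowest ratio, *Arntl* had rank 251 and *Cry1* rank 325. The genes of the *Dbp* phase thus lay at the edge of the distribution, *Arntl* and *Cry1* in its lower tail and *Clock* in its middle. These ranks describe genes chosen for such ratios and are no support for them.

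**Figure D2:**
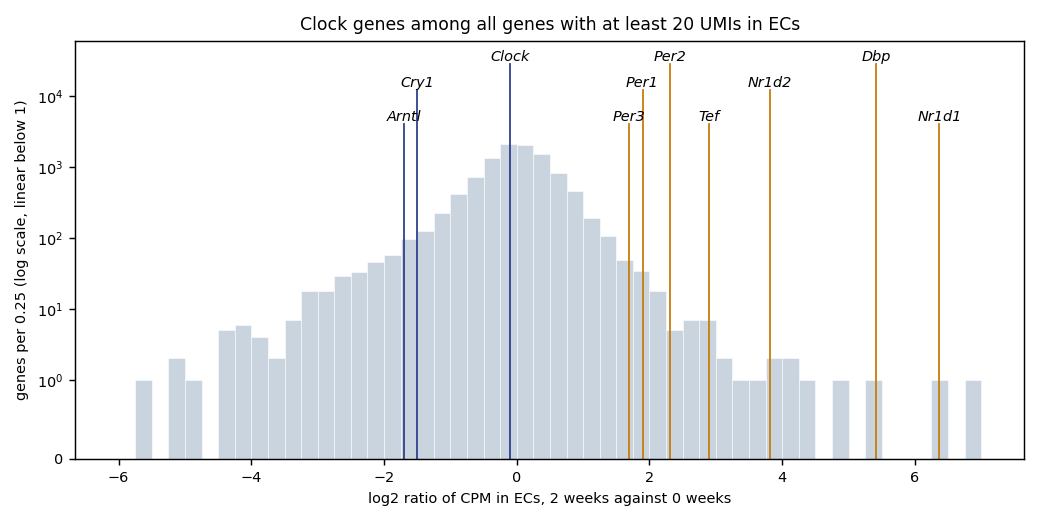
Histogram of the log2 ratio of CPM in ECs, 2 weeks against 0 weeks, over the 10536 genes with at least 20 UMIs (x axis, log2 ratio; y axis, genes per bin on a log scale that is linear below 1). Orange lines mark the 7 genes of the *Dbp* phase, all right of 1.69, and blue lines *Arntl*, *Cry1* and *Clock*, at -1.69, -1.51 and -0.11.

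In FBs the *Dbp* phase was again higher at 2 weeks, while the interval of *Arntl* held 1. Of the 7 genes, *Dbp*, *Per1*, *Nr1d1* and *Nr1d2* were past 2-fold higher, where 9.95% of all genes were. *Dbp* was at 20.3, 110 and 11.1 CPM at 0, 2 and 12 weeks, with ratios of 5.43 [3.42-8.38] and 0.550 [0.214-1.18]. *Nr1d1* was at 5.69, 182 and 4.78 CPM, a ratio of 32.0 [19.1-55.2] at 2 weeks, and 31 of the 99 FBs of that library had a UMI. *Nr1d2* went from 12.9 to 91.0 and then 23.9 CPM, with ratios of 7.08 [4.17-11.7] and 1.86 [0.972-3.35]. *Per1* had 16.8, 72.1 and 14.3 CPM and a 2-week ratio of 4.29 [2.43-7.22].

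The intervals of the remaining genes of the *Dbp* phase held 1 in FBs at 2 weeks. *Tef* had a ratio of 1.33 [0.673-2.41], *Per2* of 1.23 [0.322-3.34] and *Per3* of 1.55 [0.721-2.97], from 12, 4 and 10 UMIs in the 2-week library. *Arntl* was at 42.3, 45.5 and 51.0 CPM, with ratios of 1.08 [0.546-1.93] and 1.21 [0.799-1.77], and the ratio of 0.309 in ECs lay outside its interval at 2 weeks. After thinning each cell to 1000 UMIs, where 1 of 70 FBs of the 2-week library had an *Arntl* UMI, the log2 ratio was -1.83 in place of 0.11, so the value in FBs rests on few cells. *Tef*, thinned, stood at -1.5 in place of 0.42. *Clock* had a ratio of 1.19 [0.690-1.92]. In FBs *Cry1* was past 2-fold lower, as 9.81% of all genes were, at 0.426 [0.0506-1.60] on 2 UMIs, which does not set it apart from 1. At 12 weeks none of the 10 genes was past 2-fold in FBs, where 6.81% of all genes were higher and 6.42% lower. In the 2-week library 41.4% of FBs had over 10% mitochondrial UMIs, against 3.32% at 0 weeks. Without such cells, in all libraries, the log2 ratio of the summed *Dbp* phase was 2.14, beside 2.13 with them.

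Mural cells, the pericytes and smooth muscle cells of the vessel wall, resembled ECs in direction, on far fewer UMIs. *Dbp* was at 5.06 CPM at 0 weeks and 220 CPM at 2 weeks and had 0 UMIs at 12 weeks, where 3 UMIs would have been 27.3 CPM. Its 2-week ratio was 43.4 [18.3-125]. Of mural cells 52.7% had over 10% mitochondrial UMIs at 2 weeks, against 31.1% at 0 weeks. EC markers in mural cells at 2 weeks stood at 10.4% of their EC level, and their part in the result was not tested. *Nr1d2* was 11.9-fold [4.74-32.4], *Tef* 3.68-fold [1.58-8.13] and *Per1* 2.07-fold [1.10-3.71] higher. These were the 4 of the 7 genes with 20 UMIs or more, and 6.23% of all genes were as far higher. *Nr1d1* had 11 UMIs at 2 weeks against 1 at 0 weeks, a ratio of 69.8 [10.1-3006]. *Per2*, with 4 against 9 UMIs, had a ratio of 2.82 [0.635-10.1], and *Per3*, with 1 against 6, a ratio of 1.06 [0.0230-8.72].

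*Arntl* and *Cry1* had 1 UMI each in the mural cells of the 2-week library, against 24 and 22 at 0 weeks. Their ratios were 0.265 [0.00643-1.62] and 0.289 [0.00699-1.79], past 2-fold lower as 11.6% of all genes were, and both intervals held 1. With the mean over cells in place of pooled UMIs the log2 ratio of *Arntl* was 0.35, so its direction in mural cells rests on how the cells are weighted. *Clock* had a ratio of 0.684 [0.264-1.49] at 2 weeks. At 12 weeks *Clock* was past 2-fold lower, at 0.332 [0.0394-1.25] on 2 UMIs, where 16.0% of all genes were, and none of the 10 genes with 20 UMIs was past 2-fold higher, as 8.35% of all genes were.

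In blood cells *Dbp* and *Nr1d1* had their smallest 2-week ratios of the 4 classes. *Dbp* went from 6.15 to 24.6 CPM, 4.00-fold [1.64-9.25], and had 0 UMIs at 12 weeks, where 3 UMIs would have been 8.07 CPM. *Nr1d1* went from 3.26 to 44.3 CPM, 13.6-fold [5.80-34.4], *Nr1d2* from 3.98 to 32.0 CPM, 8.03-fold [3.32-19.8], and *Per1* from 27.5 to 76.3 CPM, 2.77-fold [1.76-4.26]. Past 2-fold higher at 2 weeks were thus 4 of the 6 genes with enough UMIs, where 10.9% of all genes were. *Tef* had a ratio of 1.36 [0.406-3.62], *Per2* had 1 UMI against 14, and *Per3* had 0 UMIs against 20, which allows a ratio of up to 1.38.

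In the same cells *Arntl* had a 2-week ratio of 1.26 [0.379-3.32], *Clock* of 1.26 [0.674-2.20] and *Cry1* of 0.523 [0.0601-2.09], none past 2-fold lower, as 12.9% of all genes were. At 12 weeks *Clock* was at 0.458 [0.145-1.11] of its healthy level, past 2-fold lower as 11.2% of all genes were. *Nr1d2* was 4.05-fold higher [1.23-11.9] on 17 UMIs over both libraries, below the minimum for a call, while 14.5% of all genes were called higher. The makeup of this class differed between libraries, with 33, 0 and 70 cells gated as B cells at 0, 2 and 12 weeks. Within macrophages, which numbered 879 and 136 cells at 0 and 2 weeks, the summed *Dbp* phase was 2.88-fold higher [2.09-3.92] at 2 weeks, near the 3.08 of all blood cells.

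**Figure D3:**
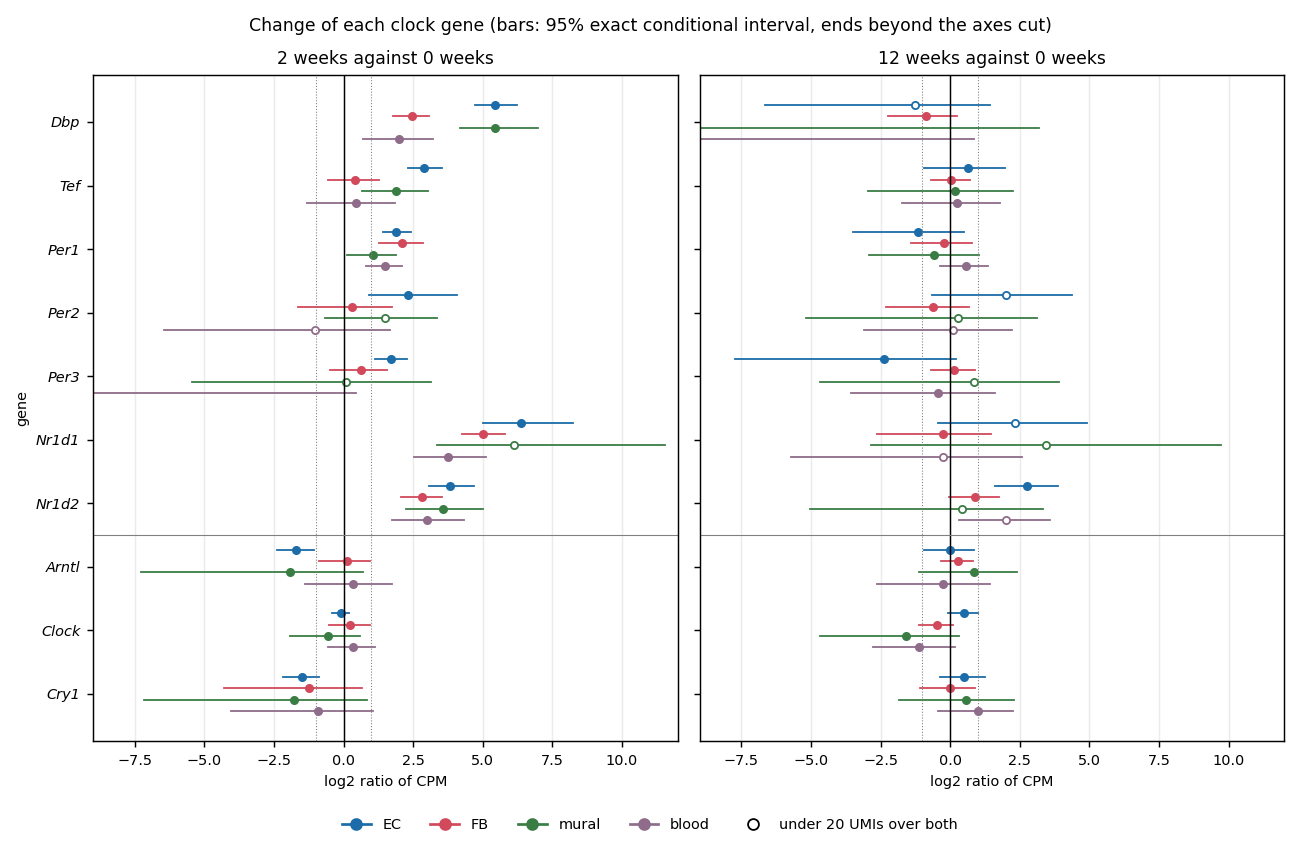
Log2 ratio of CPM for each clock gene at 2 weeks (left) and 12 weeks (right) against 0 weeks, by class, with 95% exact intervals cut at the axis ends, open circles for under 20 UMIs and no point where a library had 0. At 2 weeks *Dbp*, *Nr1d1* and *Nr1d2* lie right of 0 in every class, while *Arntl* lies left of 0 in ECs and mural cells only and its interval excludes 0 in ECs alone. At 12 weeks the intervals of *Nr1d2* in ECs and blood cells are the ones that exclude 0.

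Summed over genes, the *Dbp* phase was higher at 2 weeks in all 4 classes. The 7 genes together went from 42.1 to 497 CPM in ECs, 11.8-fold [9.98-14.1], from 127 to 554 CPM in FBs, 4.38-fold [3.61-5.27], from 82.7 to 530 CPM in mural cells, 6.41-fold [4.80-8.57], and from 62.3 to 192 CPM in blood cells, 3.08-fold [2.33-4.05]. After thinning to 1000 UMIs per cell the log2 ratio was 3.47 in place of 2.68 in mural cells and 1.05 in place of 1.62 in blood cells, higher in both. At 12 weeks the ratio was 1.48 [0.974-2.18] in ECs, 0.981 [0.763-1.25] in FBs, 0.992 [0.440-1.96] in mural cells and 1.30 [0.848-1.92] in blood cells, and every interval held 1. At 12 weeks the log2 ratio after thinning was 1.22 in mural cells in place of -0.01 and 1.02 in blood cells in place of 0.37, and with means over cells it was 1.01 in blood cells.

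The *Arntl* phase moved opposite to it at 2 weeks in ECs, where the 3 genes together went from 99.97 to 63.7 CPM, a ratio of 0.637 [0.536-0.756]. In mural cells the ratio was 0.515 [0.229-1.01], lower in direction with an interval that reached 1. In FBs it was 1.03 [0.697-1.48] and in blood cells 1.12 [0.677-1.76], so opposite movement was not seen in those classes. The ratio of 0.637 in ECs lay outside both intervals, but a smaller fall lay within them. With pooled UMIs the ratio in ECs was 0.617 times that in FBs [0.412-0.948] and 0.570 times that in blood cells [0.349-0.970]. At 12 weeks the ratio was 1.30 [0.985-1.69] in ECs, 0.934 [0.715-1.20] in FBs, 0.875 [0.390-1.72] in mural cells and 0.831 [0.453-1.42] in blood cells. All these intervals held 1. After thinning, the *Arntl* phase at 2 weeks had a log2 ratio of -0.28 in FBs in place of 0.04 and of -0.50 in blood cells in place of 0.16.

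**Figure D4:**
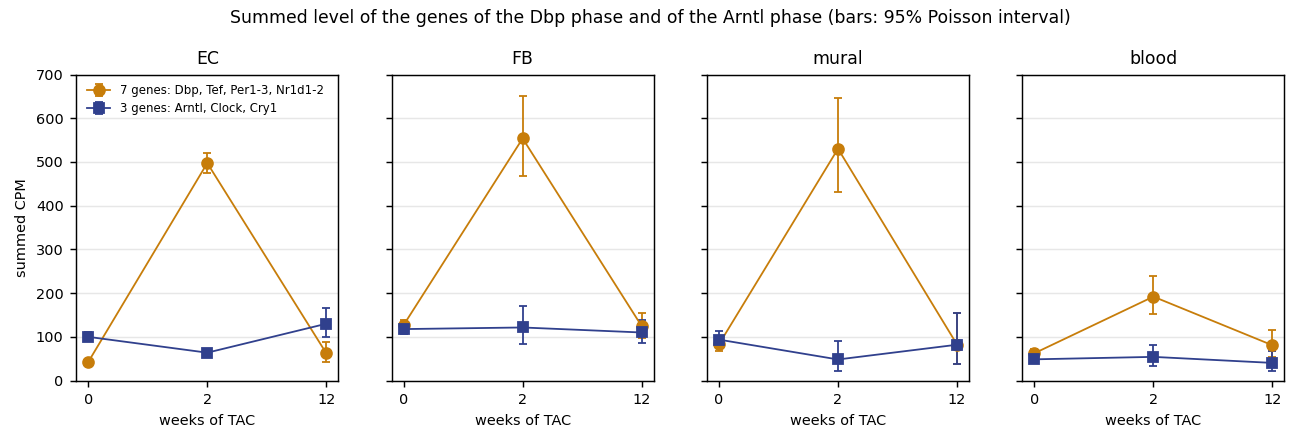
Summed CPM of the 7 genes of the *Dbp* phase (orange circles) and the 3 genes of the *Arntl* phase (blue squares) in each class at 0, 2 and 12 weeks, with 95% Poisson intervals. The orange line peaks at 2 weeks in every class, lowest in blood cells at 192 CPM, while the blue line dips in ECs and mural cells and is near level in FBs and blood cells.

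The ratio of 2 genes within a library does not depend on the total by which levels are scaled. In ECs there were 25.5 *Dbp* UMIs for each *Arntl* UMI at 2 weeks and 0.184 at 0 weeks, an odds ratio of 136 [68.8-284]. In FBs the figures were 2.42 and 0.480, with an odds ratio of 5.01 [2.34-11.4]. In mural cells they were 41 and 0.25, with an odds ratio of 144 [18.0-6895], and in blood cells 2 and 0.630, with an odds ratio of 3.11 [0.802-13.7]. The balance of the 2 genes was thus shifted towards *Dbp* in ECs, FBs and mural cells, and in blood cells the interval held 1. For *Nr1d1* per *Arntl* the interval lay above 1 in every class, with odds ratios of 259 [88.3-1047] in ECs, 29.1 [13.0-69.7] in FBs, 163 [11.8-11766] in mural cells and 10.3 [2.72-46.6] in blood cells. At 12 weeks against 0 weeks *Dbp* per *Arntl* had an odds ratio of 0.421 [0.00927-3.20] in ECs and 0.457 [0.163-1.11] in FBs. After thinning the direction in ECs turned, with a log2 odds ratio of 0.13 in place of -1.25.

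The 2-week ratios were compared between ECs and each other class. For *Dbp* the ratio in ECs was 7.74 times that in FBs [3.94-16.1] and 10.4 times that in blood cells [3.85-30.0], but 0.983 times that in mural cells [0.299-2.82]. For *Tef* the values were 5.44 [2.60-12.4] against FBs, 5.33 [1.80-19.4] against blood cells and 1.99 [0.799-5.20] against mural cells. *Nr1d1* did not differ beyond counting error between ECs and FBs, at 2.54 [0.821-10.5], nor did *Nr1d2*, at 1.95 [0.925-4.34], or *Per1*, at 0.858 [0.456-1.68]. For *Arntl* the ratio in ECs was 0.286 times that in FBs [0.132-0.651] and 0.245 times that in blood cells [0.0816-0.894], both below 1. After thinning, the log2 ratio of *Arntl* at 2 weeks was -2.01 in ECs, -1.83 in FBs and -0.05 in blood cells, so the difference between ECs and FBs was not seen at that setting, where 1 FB of the 2-week library had a UMI. The comparison was made for the 10 genes and for the summed phases against the 3 other classes. *Per3* against blood cells was left out, since these had 0 UMIs of it at 2 weeks. The intervals here, too, cover counting error within the same pair of libraries.

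The order of the classes by level changed with the library. At 0 weeks *Dbp* was 4.40 times as high in FBs as in ECs [2.55-8.05], while mural cells and blood cells did not differ from ECs beyond their intervals, at 1.10 [0.352-2.95] and 1.34 [0.634-2.82]. At 2 weeks mural cells and ECs were the highest, with a ratio of 1.11 [0.791-1.52] between them, FBs were at 0.557 of the EC level [0.370-0.807] and blood cells at 0.125 [0.0595-0.231]. *Nr1d1* was highest in FBs at 0 and 2 weeks, at 4.93 times the EC level [1.69-19.6] and 1.91 times [1.38-2.59]. At 12 weeks it was at 0.821 times the EC level in FBs [0.110-6.13], on 3 UMIs in each of these classes. With pooled UMIs *Arntl* was higher in FBs than in ECs in each library. The ratio was 1.69 [1.30-2.21] at 0 weeks, 5.87 [2.71-12] at 2 weeks and 2.02 [1.03-4.20] at 12 weeks. After thinning, 1 of 70 FBs (1.43% [0.0362-7.70]) and 10 of 1327 ECs (0.754% [0.362-1.38]) had an *Arntl* UMI at 2 weeks. These intervals overlapped, so the thinned shares do not set the 2 classes apart. Blood cells at 2 weeks carried *Dbp* at 12.5% of the EC level and EC markers at 1.35% of theirs, whose part was not tested.

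Within ECs *Dbp* was higher at 2 weeks in each of 3 subclasses. In capillary ECs *Dbp* was at 4.09 CPM at 0 weeks and 171 CPM at 2 weeks, in arterial ECs at 8.22 and 428 CPM, and in endocardial or venous ECs at 9.0 and 136 CPM. The levels in endocardial or venous ECs rested on 1 and 10 UMIs, below the minimum for a call, with a ratio of 15.2 [2.16-658]. In the 2-week library arterial ECs held 2.51 times as much *Dbp* [2.04-3.06] as capillary ECs, 2.57 times as much *Tef* [1.72-3.75] and 2.36 times as much *Nr1d1* [1.74-3.16]. At 0 weeks the same comparison for *Dbp* was 2.01 [0.216-9.20] on 2 and 11 UMIs. Arterial ECs of the 2-week library had a median of 4.38% mitochondrial UMIs against 2.04% in capillary ECs, and the part of this in the difference was not tested. The summed *Dbp* phase was 11.2-fold higher [9.16-13.8] at 2 weeks in capillary, 14.7-fold higher [8.90-26.1] in arterial and 8.88-fold higher [3.94-23.4] in endocardial or venous ECs. The summed *Arntl* phase of capillary ECs was at 0.622 [0.510-0.758] of the healthy level at 2 weeks and at 1.59 [1.14-2.18] at 12 weeks, where its interval, unlike that of all ECs, lay above 1. At 2 weeks it was 0.568 [0.293-1.08] in arterial ECs and 1.33 [0.409-4.18] in endocardial or venous ECs, on 18 and 7 UMIs in the 2-week library, and both intervals held 1. In smooth muscle cells *Dbp* went from 3.19 to 232 CPM, on 2 and 25 UMIs.

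**Figure D5:**
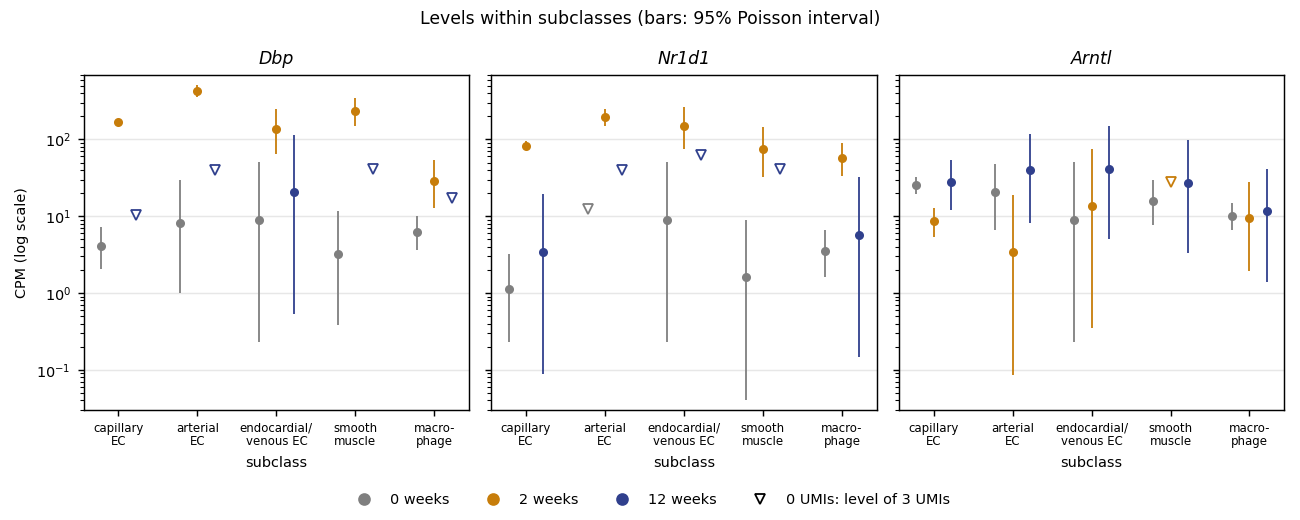
Levels of *Dbp*, *Nr1d1* and *Arntl* (CPM, log axis) in 5 subclasses at 0 (grey), 2 (orange) and 12 weeks (blue), with 95% Poisson intervals and open triangles for 0 UMIs at the level of 3 UMIs. *Dbp* at 2 weeks is highest in arterial ECs, at 428 CPM, and lowest in macrophages, at 28.4 CPM.

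Transcripts of other cells also differed between the libraries of ECs. The 5 erythroid genes summed to 91.9, 302 and 6558 CPM in ECs at 0, 2 and 12 weeks and the 6 cardiomyocyte genes to 638, 502 and 171 CPM, and their part in the results was not tested. With haemoglobin, mitochondrial and ribosomal genes left out of the total, the log2 ratio of the *Dbp* phase in ECs at 2 weeks was 3.62, beside 3.56.

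Other genes of the clock were counted in lists by their known phase. Of 8 further genes of the *Dbp* phase, 7 had enough UMIs in ECs at 2 weeks, with 2 past 2-fold higher and 1 lower. Their median log2 ratio was 0.54, beside 2.89 for the 7 described above. Of all genes in this comparison 4.08% were past 2-fold higher and 6.40% lower. *Ciart*, a repressor of BMAL1 and CLOCK, was 3.07-fold [1.57-6.47] and *Bhlhe41*, a repressor that competes for E-boxes, 7.64-fold [2.31-39.7] higher. *Wee1*, a cell-cycle kinase, was at 0.323 [0.153-0.633] of its healthy level. *Nfil3*, the repressor that competes with DBP for D-boxes and peaks near *Arntl*, was at 0.395 [0.238-0.637] in ECs at 2 weeks and was the 1 gene of 3 in the *Arntl*-phase list with enough UMIs. Of 14 genes with no set phase, such as the kinases and ubiquitin ligases of the clock, 11 had enough UMIs and 0 were past 2-fold in ECs at 2 weeks.

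In FBs at 2 weeks 1 of 6 further *Dbp*-phase genes was past 2-fold, where 9.95% of all genes were higher and 9.81% lower. It was *Hlf*, a relative of *Dbp* and *Tef*, at 0.254 [0.0520-0.755] on 3 UMIs, opposite to *Dbp*. At 12 weeks *Bhlhe41* was 2.36-fold higher [1.68-3.26] in FBs. *Lonrf3* in FBs (0.322 [0.00777-2.01]) and *Hlf* in ECs (0.354 [0.00853-2.23]), with 1 UMI each, were past 2-fold lower, and *Timeless* in FBs was at 2.15 [0.611-6.21]. Of all genes at 12 weeks 6.81% were past 2-fold higher and 6.42% lower in FBs, and 7.91% were lower in ECs. Of the further *Dbp*-phase genes 6 had enough UMIs in FBs at 12 weeks and 5 in ECs. Of the genes with no set phase 11 did in FBs.

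*Per1* also responds to glucocorticoids, so a list of induced genes that includes it was counted. Of 11 such genes, 3 were past 2-fold higher in ECs at 2 weeks, where 4.08% of all genes were higher and 6.40% lower, *Per1* itself, *Fkbp5* at 2.32 [1.31-4.29] and *Zbtb16* at 2.55 [1.13-6.25], and 3 were lower, *Errfi1* at 0.448, *Mt1* at 0.288 and *Mt2* at 0.320. In FBs 3 were higher and 0 lower, where 9.95% of all genes were higher and 9.81% lower, *Per1*, *Fkbp5* at 2.77 [1.41-5.04] and *Ddit4* at 2.02 [1.18-3.28]. In mural cells at 2 weeks 2 of 9 with enough UMIs were higher and 0 lower, where 6.23% of all genes were higher and 11.6% lower. In blood cells 4 of 11 were higher and 1 lower, where 10.9% and 12.9% of all genes were. *Per1* itself was among those higher in mural cells and in blood cells too, at 2.07 and 2.77.

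Immediate early genes and heat shock genes, which can rise during tissue digestion, were counted as well. None of 16 immediate early genes was past 2-fold in ECs at 2 weeks, with a median log2 ratio of -0.32. Of all genes 4.08% were higher there and 6.40% lower. At 12 weeks *Atf3* was at 0.340 in ECs. In FBs *Ier3* was at 2.85 at 2 weeks and 2.10 at 12 weeks and *Klf2* at 0.455 at 2 weeks. Of all genes in FBs 9.95% were higher and 9.81% lower at 2 weeks, and 6.81% and 6.42% at 12 weeks. Of 7 heat shock genes, *Hsph1* alone was past 2-fold in ECs at 2 weeks, at 0.270, and 4 were lower at 12 weeks, where 7.91% of all genes were, *Hspa1a* at 0.325, *Hspa1b* at 0.281, *Hsph1* at 0.273 and *Dnajb1* at 0.319. In FBs *Hspa1b* was at 2.05 and *Hsph1* at 0.452 at 2 weeks, and *Hspa1b* at 0.358 and *Dnajb1* at 0.458 at 12 weeks. Blood cells had 5 of 16 immediate early genes lower and 0 higher at 2 weeks, where 12.9% of all genes were lower. At 12 weeks 6 of 7 heat shock genes were lower there and 0 higher, with a median log2 ratio of -1.93, where 11.2% of all genes were lower. The part of digestion in the values of the clock genes was not tested.

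The genes most like *Dbp* and *Arntl* were sought over the 8 log2 ratios of 4 classes and 2 comparisons, among 5350 genes with at least 20 UMIs in each. Nearest to *Dbp*, by root mean square difference, were *Il6* (1.76), *Tef* (1.94), *Per1* (2.04), *Snhg9* (2.08) and *Emc1* (2.30), all far off in log2 units. *Dbp* itself fell short of 20 UMIs in some of the 8, and its 12-week ratios in mural and blood cells, with 0 UMIs, were taken as no change. *Nr1d1*, *Nr1d2*, *Per2* and *Per3* fell short in some of the 8 too and were not among the genes compared, so the order leaves them out. Nearest to *Arntl* were *Leo1* (0.421), *Fkbp4* (0.559), *Nmt2* (0.565), *Eif2ak2* (0.573) and *Tor1b* (0.575). The 2 comparisons share the healthy library, so the 8 ratios are not independent.

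Some of the 10 genes overlap others in the annotation, among them *Dbp* with *Sphk2*, *Nr1d1* with *Thra* and *Per3* with *Camta1*. How reads of overlapping stretches were assigned was not given in the sources used here, and the counts of these genes are uncertain to that extent.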

How the data were processed

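Non-CMs of 3 ventricle preparations were measured by droplet-based 3′ scRNA-seq. The authors deposited raw UMI counts per gene and cell, without normalization; the submitters' processing notes name Cell Ranger 2.0.0 and mm10. Cells with at least 200 genes were kept, and no doublet caller was run; cells above the 95th percentile of UMIs were removed as an alternative. Each cell went to the class (EC, FB, mural, blood, neural) with the highest marker UMI sum if that sum was at least 3 and at least 2 times the next. Subclasses needed 2 UMIs and the same margin. UMIs were pooled per class and library. Poisson and conditional binomial intervals at 95% and conditional odds ratios were computed with scipy 1.17.1, pandas 2.3.3 and numpy 2.4.6 in Python 3.11.15, and figures with matplotlib 3.10.9. With 1 library per phase no test was run. For calls a count of 0 was set to 3 UMIs; after the data were seen, a bound on the wrong side of 1 was taken as no change. The 10 genes, marker lists and other lists were chosen with earlier results of these data known. Genes named beyond the 10 were those of the lists with at least 20 UMIs and past 2-fold in ECs or FBs, and the 5 most like *Dbp* and *Arntl*. In all, 27645 of 27998 gene IDs matched the GENCODE M21 annotation of GRCm38. The calculations were tested on simulated data. PCR and capture add error that the intervals do not cover.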

Additional observations from a re-analysis of the deposited data

How the results depend on the processing

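The 8 alternatives were another gate margin of 4, no margin, removal of cells with over 10% mitochondrial UMIs, a minimum of 500 genes, removal of the deepest cells, means over cells, a smaller total and thinning to 1000 UMIs. A further one, chosen after seeing the data, kept cells with UMIs of at most 1 cardiomyocyte marker. Of 144 values for summed genes, 139 moved by less than their counting interval. The other 5 were log2 ratios of the *Dbp* phase. After thinning these were 3.47 in mural cells and 1.05 in blood cells at 2 weeks, and 1.22 and 1.02 at 12 weeks, and with means over cells 1.01 in blood cells at 12 weeks. The cause was not tested. Among 40 values of *Dbp* per *Arntl*, 1 changed sign, in ECs at 12 weeks, where thinning gave a log2 odds ratio of 0.13. Of 668 values of single genes, 658 stayed within their interval. In all, 45 of the 668 changed sign, 43 of them where the main ratio was within 2-fold. The 2 others were *Arntl* in mural cells at 2 weeks (0.35 with means over cells) and *Dbp* in ECs at 12 weeks (0.49 after thinning). Of the summed values 20 of 144 changed sign, all with a main ratio within 2-fold. Thinned, *Arntl* in FBs at 2 weeks had a log2 ratio of -1.83 and *Tef* -1.5, on few UMIs. Over the 321 values of single genes past 2-fold, 319 kept their direction. The shares of all genes past 2-fold depend on the minimum of UMIs: in ECs at 2 weeks 2.49% were higher with a minimum of 100 and 10.3% with a minimum of 1. No paired analysis was possible because each phase had 1 library. Depth limits the 12-week library most, with 515543 UMIs in ECs and 109784 in mural cells, where a gene with 0 UMIs could still have stood at 5.82 and 27.3 CPM.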
